A study of Mus musculus with 2 samples.

Results

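The replication-dependent histone genes of the mouse were examined for binding of CTCF, a zinc-finger protein that binds a long DNA motif and takes part in the folding of chromosomes into loops. Members were taken by symbol: the 67 protein-coding genes of 22202 in the mm9 annotation whose names start with Hist1h, Hist2h, Hist3h or Hist4h. They comprise 6 genes for the linker histone H1, 19 for H2A, 18 for H2B, 11 for H3 and 13 for H4. The study is a chromatin immunoprecipitation with sequencing (ChIP-seq) against CTCF in E14TG2a.4 cells, which the labels describe as male embryonic stem cells from mouse strain 129/Ola. It holds 2 libraries, which the labels number as biological replicates 1 and 2 of a single group, with no treatment named; for both, the labels give an embryonic stage and an age of 3.5 days. Without a second condition, the values below describe where peaks lie, how strong they are and how far the replicates differ, and no conditions were tested against each other. The identity of the cells is taken from the labels, since peak lists hold no expression values to check it with.

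Replication-dependent histone genes supply the bulk of the core and linker histones that package newly copied DNA, and they are transcribed mainly in S phase. Their transcripts mostly lack introns and end in a conserved stem-loop in place of a poly(A) tail. The genes sit close together in several copies per histone type, often as divergent H2A and H2B pairs that share one promoter region, and are transcribed in nuclear structures called histone locus bodies.

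Joining members that lie within 100 kb of each other gave 8 regions. Chromosome 13 holds the Hist1 genes in 4 groups, named here A to D from left to right, and a lone gene. Hist1 A (positions 21807632 to 21929399) has 18 genes, Hist1 B (22126982 to 22135545) has 5, Hist1 C (23622919 to 23856283) has 29 and Hist1 D (24025637 to 24026720) has the pair Hist1h2ba and Hist1h2aa. Hist1h2al stands alone at 51298057 to 51298434. Hist2 on chromosome 3 (96023839 to 96082924) has 9 genes, Hist3 on chromosome 11 (58762413 to 58770176) has Hist3h2ba and Hist3h2a, and Hist4h4 stands alone on chromosome 6 (136752589 to 136752900). All positions are on mm9.

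The DNA at the peaks is shown first, so that each value below can be read beside its sequence and because a pair of peaks share one sequence. The sequences come from the reference genome and were found with a CTCF motif model, 20 bases wide, that was learned from the 3000 strongest peaks of chromosomes holding no histone gene. Its most frequent bases are GCCACCAGGGGGCGCCAGAG. Each line gives the best match of one peak, 5′ to 3′ on its own strand, with the 20 matching bases in capitals and 5 bases on each side in lower case. A best match exists in every peak whatever its score, so a line is not by itself a binding site, and 7 of the first 13 score below the looser threshold used further down. The first 13 lines are all the peaks inside the clusters, ordered along chromosomes 13 and 3. The last 6 lie within 50 kb outside: the strongest peaks beside Hist1 A on both sides, left of Hist1 C and right of Hist2, and a pair that carry the same 20 bases.
Farther upstream of Hist1h4j, chr13:21825462-21825491, plus strand: ctgctTCCTGGAGAGGGCAGAAGGGagcac
Upstream of Hist1h4j, chr13:21826138-21826167, minus strand: ggatgGCCACTAGAGGGCACTCTTGactat
Between Hist1h2bp and Hist1h2bq, chr13:21895131-21895160, minus strand: catatGCCACAGGAGGGCGGTCGAGttcca
Upstream of Hist1h3e, chr13:23655173-23655202, minus strand: tgaccACCACTAGGTGACTTTTGTAccctg
Inside the Hist1h2be gene model, chr13:23690032-23690061, minus strand: tggaaACCACTAGGTGGCGCTGCGAggctg
Between Hist1h1e and Hist1h2ac, chr13:23722705-23722734, plus strand: tagagGCCAGAAGAGGACATTGGATctcca
Between Hist1h1t and Hist1h4c, chr13:23789420-23789449, minus strand: catctGCCACAAGAGGGCGGCGTTAtttcc
Between Hist1h4c and Hist1h1c, first, chr13:23791855-23791884, minus strand: gacacACCAGAAGAGGGCGTCAGAGctcat
Between Hist1h4c and Hist1h1c, near Hfe, chr13:23793243-23793272, plus strand: agtaaGCCACCAGGTGTCACCCTTCttcta
Between Hist1h4c and Hist1h1c, before Hist1h1c, chr13:23824525-23824554, minus strand: tagcaGACACTAGATGGCAGGCCAAaacaa
Between Hist1h4b and Hist1h4a, chr13:23852118-23852147, plus strand: ccttgGCCACGGGGTGAAGCTGTAAagggg
Upstream of Hist2h4, chr3:96067385-96067414, minus strand: aaggaACCGGTAGAGGGCAGAGAAGagaaa
At the 3′ end of Hist2h2bb, chr3:96082437-96082466, plus strand: agatgACCACGAGATGGCGCCAGCGagtca
Left of Hist1h2bl, chr13:21806775-21806804, plus strand: ttgtgGCCACAAGATGGCAGAAAAGagcag
Right of Hist1h2br, chr13:21932520-21932549, plus strand: catatGCCACAGGAGGGCGGTCGAGttcca
Left of Hist1h4h, chr13:23616673-23616702, minus strand: ggccaGCCACATGAGGGCGCCAGAGagaca
Right of Hist2h2bb in Fcgr1, chr3:96091343-96091372, minus strand: gaaggGACAATAGAGGGCGCTAGTGtgcac
Right of Hist1h2al, chr13:51311086-51311115, minus strand: caaagGCCAGAAGAGGGCATCAGATcccct
Far right of Hist2, chr3:96131128-96131157, plus strand: tgcatGCCAGAAGAGGGCATCAGATccatt

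CTCF peaks lay inside 3 of the 8 histone regions: Hist1 A, Hist1 C and Hist2. The list called on both libraries together, the pooled list, held 39349 peaks on the autosomes and X, and 13 of them had their midpoint inside a histone region while 26 more lay within 50 kb outside. Hist1 C held 8 of the 13, Hist1 A 3 and Hist2 2. No peak lay inside Hist1 B, Hist1 D, Hist3 or the lone genes Hist1h2al and Hist4h4, whose spans are between 0.312 and 8.564 kb long. The spans together measured 0.432 Mb and held 3.01 peaks per 100 kb, the 50 kb on either side held 3.25, and the rest of the 4 chromosomes held 1.55. By cluster the density was 3.43 per 100 kb in Hist1 C, 3.38 in Hist2 and 2.46 in Hist1 A, beside averages of 1.29 over chromosome 13 and 1.16 over chromosome 3. Each replicate's own list put 11 peaks in the spans, or 2.54 per 100 kb, beside 1.44 and 1.45 over the rest of the same chromosomes. These densities are descriptions and were not tested.

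**Figure D1:**
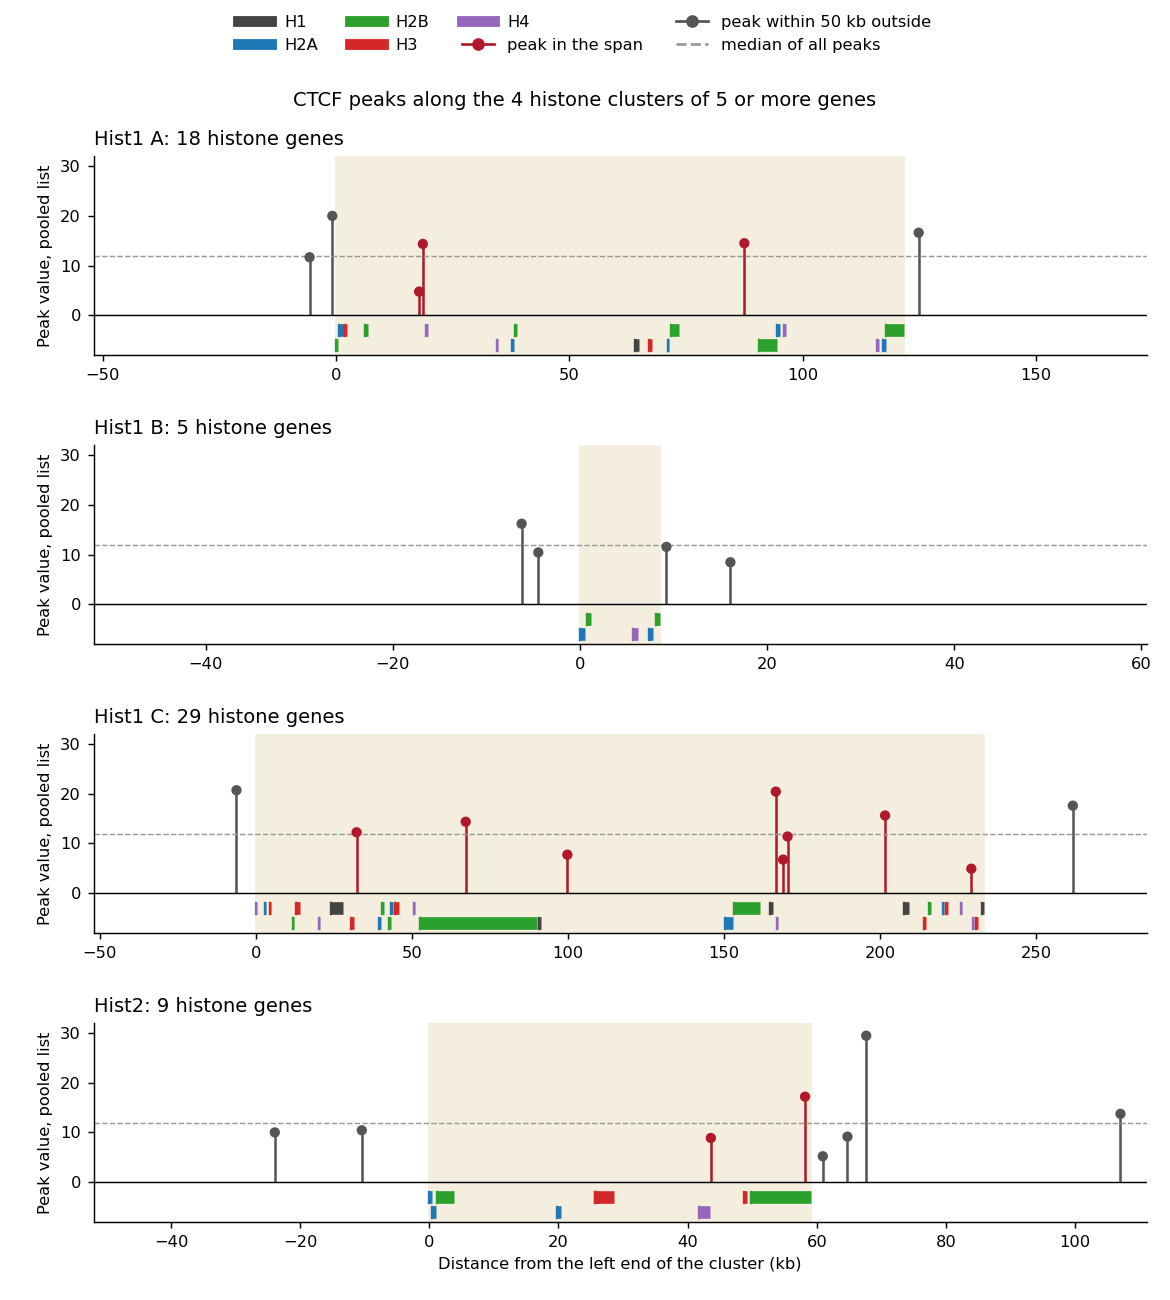
Peaks of the pooled list along the 4 histone clusters of 5 or more genes, by distance in kb from the left end of the cluster, each panel with its own scale. Stem height is the peak value as deposited, the shaded band is the span, blocks below the line are histone genes coloured by type (upper row plus strand, lower row minus strand, with a tick at the left end of each gene), and the dashed line is the median of all peaks, 11.96. Hist1 B has 4 peaks outside and none inside, and the highest stem, 29.40, stands to the right of Hist2.

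Peak strength is given by the value the authors deposited with each peak, whose scale the files do not state. The 13 peaks inside the clusters ran from 4.78 to 20.40 with a median of 12.24, the 26 outside from 4.36 to 29.40 with a median of 11.61, and all pooled peaks had a median of 11.96. Histone cluster peaks were therefore of ordinary strength in this list. To set the replicates side by side, each value was divided by the median of its own list, 13.73 in replicate 1 and 14 in replicate 2. Of the 13 cluster peaks, 11 (84.6%) overlapped a peak in both replicate lists, as did 23 of the 26 outside (88.5%) and 85.9% of all pooled peaks. The other 2 cluster peaks were the weakest pair and overlapped a peak in neither list. For the 11, the log2 ratio of replicate 1 to replicate 2 ran from -0.39 to 0.58, with 6 higher in replicate 1 and 5 in replicate 2.

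The strongest cluster peak lay between Hist1h1t, the linker histone of the testis, and Hist1h4c, an H4 gene, in Hist1 C. These genes point towards each other and are 1340 bp apart. The peak (23789011 to 23789964) had a value of 20.40 in the pooled list, 20.86 in replicate 1 and 25.14 in replicate 2. Relative to the list medians it stood at 1.66 ± 0.195 (SD, n = 2). Its midpoint was 442 bp from the 3′ end of Hist1h4c and 836 bp from its start. It exceeded 88.7% of all pooled peaks.

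To the right of Hist1h4c, a gap of 40352 bp leads to Hist1h1c, an H1 gene, and holds 3 more peaks. The nearest to Hist1h4c (23791450 to 23792212), 1507 bp from that gene, had 6.75 in the pooled list, 7.13 in replicate 1 and 6.86 in replicate 2, which is 0.505 ± 0.0207 of the list medians (SD, n = 2). Both replicates thus put it below the peak on the other side of Hist1h4c, and the ranges of the replicates did not overlap. The next (23792839 to 23793666) had 11.39, with 11.88 and 12.85 in replicates 1 and 2, and lay 651 bp from Hfe, a regulator of iron uptake that lies among the histone genes. The third (23823999 to 23824982) had 15.61, with 18.48 and 16.28, and lay 6186 bp before the start of Hist1h1c.

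The left part of Hist1 C held 3 peaks. One (23654721 to 23655645) lay 944 bp upstream of the start of Hist1h3e, an H3 gene, on the side of Hist1h2ae. Its pooled value was 12.24, with 11.88 in replicate 1 and 14 in replicate 2. Another (23689621 to 23690651) fell inside the long gene model of Hist1h2be, an H2B gene, between Hist1h4d and Hist1h1e, with 14.35 pooled, 18.22 in replicate 1 and 13.14 in replicate 2. The gap of 58964 bp between Hist1h1e and Hist1h2ac, the longest between neighbouring histone genes, held a single peak (23722276 to 23723118) of 7.74, with 6.86 and 9.14, at 8325 bp from Hist1h1e. At the right end, the peak between Hist1h4b and Hist1h4a (23851763 to 23852492) had 4.92 in the pooled list and overlapped no peak in either replicate's list.

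In Hist1 A, both peaks beside Hist1h4j, an H4 gene, lay upstream of it in the gap of 12466 bp that follows Hist1h2bm. The nearer (21825830 to 21826620), centred 679 bp from the Hist1h4j start, had 14.35 pooled, 14.52 in replicate 1 and 18.85 in replicate 2, or 1.20 ± 0.204 of the list medians (SD, n = 2). The farther (21825065 to 21825782) was the weakest of the 13, with 4.78 and no overlap in either replicate's list. The last peak of Hist1 A (21894698 to 21895603) lay in the gap of 17198 bp between the convergent H2B genes Hist1h2bp and Hist1h2bq. It had 14.49 pooled, 19.27 in replicate 1 and 13.14 in replicate 2, so that replicate 1 was above its list median and replicate 2 below.

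In Hist2, the peak at Hist2h4 (96066996 to 96067876) was centred 201 bp from the start of that H4 gene, the shortest distance of any member. It was weak, with 8.86 pooled, 10.56 in replicate 1 and 7.43 in replicate 2, or 0.650 ± 0.169 of the list medians (SD, n = 2). At the other end of the cluster, a peak 1774 bp wide (96081141 to 96082914) covered the 3′ end of the Hist2h2bb model, an H2B gene. Its value was 17.16, with 19.80 in replicate 1 and 18.28 in replicate 2, and both replicates stood above their medians, at 1.37 ± 0.0964 (SD, n = 2). The median width of the cluster peaks was 881 bp.

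**Figure D2:**
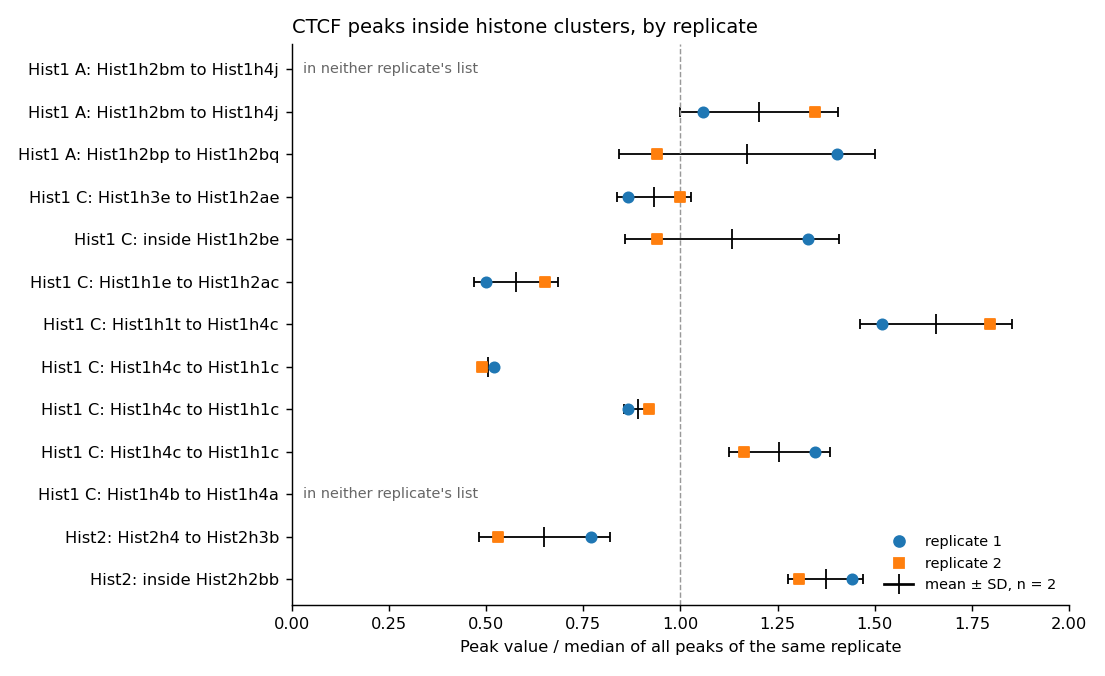
The 13 peaks inside histone clusters, labelled by the histone genes on either side or by the gene model that holds them, with the value of each replicate divided by the median of that replicate's list (circles and squares) and the mean with its SD (n = 2). The peak between Hist1h1t and Hist1h4c is farthest to the right, and 2 peaks have no replicate value. Below 1 in both replicates lie the peaks at Hist2h4, between Hist1h1e and Hist1h2ac, and the first and the one near Hfe between Hist1h4c and Hist1h1c.

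Several peaks at the outer edges of the clusters had values near or above the highest inside. On the left of Hist1 A, a peak 826 bp from the end of Hist1h2bl, an H2B gene, had 19.97, with 28.25 in replicate 1 and 18.85 in replicate 2. On the left of Hist1 C, a peak 6219 bp before Hist1h4h had 20.68, with 21.39 and 24.85, and on the right the nearest was 28364 bp from Hist1h1a and 1283 bp from Trim38, at 17.58 (21.91 in replicate 1 and 17.99 in replicate 2). In the pooled mm9 list the highest value near any histone gene was 29.40, in Fcgr1, an Fc receptor gene, 8576 bp to the right of Hist2h2bb. Its replicates had 36.96 and 37.42, or 2.68 ± 0.0135 of the list medians (SD, n = 2), and it exceeded 99.4% of all pooled peaks. On the left of Hist2 the strongest was 10.41, with 10.30 and 13.42, at 10462 bp from Hist2h2ab, and both of its replicate values were below the list medians.

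The small clusters had peaks beside them and none between their genes. Hist1 B was bracketed by a peak of 16.18 on the left, 6246 bp from Hist1h2ah (17.95 in replicate 1 and 22.56 in replicate 2), and one of 11.53 on the right, 672 bp from Hist1h2bj (13.73 and 10.28). Hist3 had 17.58 on the left, 876 bp from Butr1 (21.39 and 19.71), and 11.25 on the right inside Trim11 (11.62 and 12.57). Hist4h4 had one peak within 50 kb, of 15.75 at 455 bp from Art4 (15.58 and 20.28). The peak of 14.49 on the right of Hist1h2al (15.05 and 15.42) was 7775 bp away, and that on its left had 4.36 and overlapped the list of replicate 2 alone (4.28). Hist1 D, whose genes Hist1h2ba and Hist1h2aa encode testis variants of H2B and H2A, had a single peak of 7.03 within 50 kb, inside Slc17a1. Of the mm9 replicate lists it overlapped that of replicate 2 alone (8.28).

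Few histone genes had a peak within 1000 bp of their start, and 4 of the 5 that did were H4 genes. A pooled peak midpoint lay within 1000 bp of a start for 5 of the 67 members (7.46%), beside 10.3% of all protein-coding genes. The 5 were Hist2h4 at 201 bp, Hist1h4j at 679 bp, Hist1h4c at 836 bp, Hist1h3e at 944 bp and Hist1h4a at 972 bp. The nearest member past that limit was Hist1h2bj at 1134 bp. By type this was 4 of 13 H4 genes and 1 of 11 H3 genes, and 0 of 19 for H2A, 0 of 18 for H2B and 0 of 6 for H1. At Hist1h4c and Hist1h4a the midpoint lay not upstream but beyond the 3′ end of the short gene, by 442 and 434 bp. The peak at Hist1h4a was also in neither replicate's list. With the list of replicate 1 alone the members were Hist2h4, Hist1h4j, Hist1h4c and Hist1h3e (9.4% of all genes), and with that of replicate 2 they were Hist2h4, Hist1h4j and Hist1h4c (9.51% of all genes). The count was 1 within 500 bp (Hist2h4), where 6.3% of all genes had a peak, and 10 within 2000 bp, where 16.6% did. Over all 67 members, no share exceeded that of all genes at the same setting. Among H4 genes the share within 1000 bp was 30.8%, above that of all genes, and it was not tested because the types were compared with these values in view and neighbouring genes share peaks.

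At greater distances the share of histone genes with a pooled peak was below that of all genes within 5 kb and above it within 10 kb. The distance from a start to the nearest pooled midpoint ran from 201 to 48714 bp with a median of 8465 bp, beside 11474.5 bp for all protein-coding genes. Within 5 kb there was a peak for 16 members (23.9%, beside 30.7% of all genes), and within 10 kb for 37 (55.2%, beside 46.5%). Hist1h2ab, Hist1h3b, Hist1h4b, Hist1h4a, Hist1h3a and Hist1h1a counted within 10 kb only through the peak of 4.92, which was in neither replicate's list. In replicate 1 their nearest peaks lay 18431 to 29729 bp away. Hist1h2bq, Hist1h2ao, Hist1h4m, Hist1h4n, Hist1h2ap and Hist1h2br counted through the peaks of the inverted repeat described below, which the mm10 lists lacked. By type the median was 6219 bp for H4, 7233.5 bp for H1, 10293 bp for H2B, 10462 bp for H2A and 10591 bp for H3, with ranges that overlapped widely. Within clusters, the extremes were Hist1h4j (679 bp) and Hist1h1b (22656 bp) in Hist1 A, Hist1h2bj (1134 bp) and Hist1h2bk (5169 bp) in Hist1 B, and Hist1h4c (836 bp) and Hist1h3f (19221 bp) in Hist1 C. In Hist2 they were Hist2h4 (201 bp) and Hist2h2aa2 (23219 bp), and in Hist3 they were Hist3h2a (12827 bp) and Hist3h2ba (18601 bp). Farthest of all lay Hist1h2aa (48714 bp), its pair partner Hist1h2ba (48408 bp) and Hist4h4 (43617 bp).

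**Figure D3:**
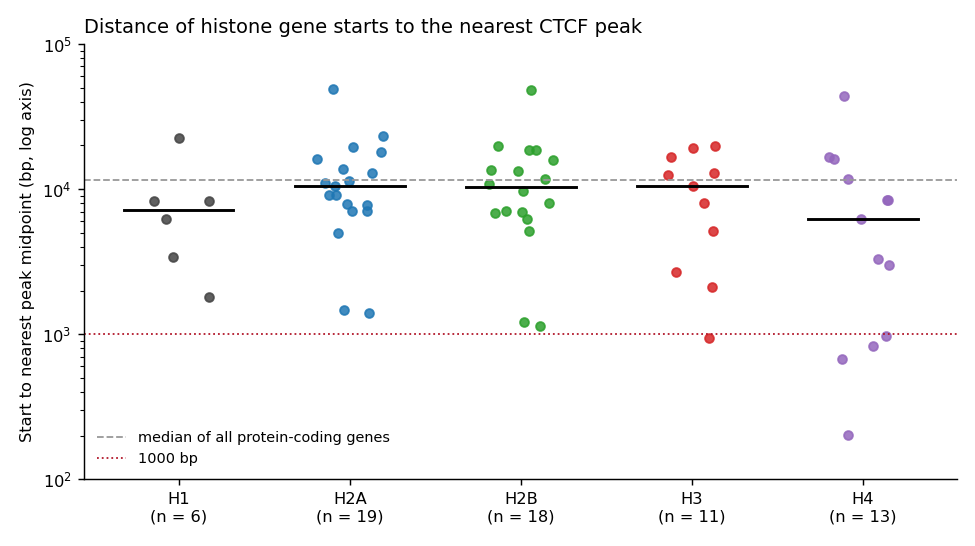
Distance in bp (log axis) from the start of each of the 67 histone genes to the nearest midpoint of a pooled peak, by histone type; bars are medians, the horizontal spread of points is for legibility, the dashed line is the median of all protein-coding genes and the dotted line marks 1000 bp. H4 has 4 points under 1000 bp and H3 has 1, while H1, H2A and H2B have none.

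Divergent H2A and H2B pairs, the unit repeated most often in these clusters, held no peak between their genes. There were 12 such pairs, with 167 to 305 bp between the genes, which is short beside a peak, and 2.65 kb in all. At the 3.01 peaks per 100 kb of the spans, so short a total would mostly hold none, so this absence carries little information. Over the 58 gaps between neighbouring histone genes, 8 held 11 of the 13 cluster peaks, and the other 2 peaks lay inside the Hist1h2be and Hist2h2bb models. A peak was found in 3 of 16 convergent gaps, 3 of 23 tandem gaps and 2 of 19 divergent gaps. By length the order was reversed, with 2.16 peaks per 100 kb in convergent, 3.25 in tandem and 6.66 in divergent gaps. Of the 4 peaks in divergent gaps, 3 lay in the gap of 40352 bp between Hist1h4c and Hist1h1c. These differences were not tested. The 9 gaps of 10 kb or longer held 7 peaks over 217.9 kb, or 3.21 per 100 kb. The 49 shorter gaps held 4 peaks over 104.3 kb, or 3.83 per 100 kb, so the density was similar in long and short gaps.

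Most best matches lay near the centres of the peaks. In 12 of the 13 cluster peaks the best match to the motif was within 100 bp of the peak midpoint (92.3%), as in 23 of 26 peaks outside (88.5%) and 83.9% of 8329 other peaks on the 4 chromosomes. In 7719 windows of the same widths placed 2000 bp beyond a peak, 22.2% had their best match within 100 bp of the middle. The exception inside the clusters was the wide peak at Hist2h2bb, whose best match lay 425 bp from the midpoint. The mm10 set described below has summits of 42.4 and 113.0 beside that gene, so this midpoint may not mark a single site. Of the 6 printed from outside, that of Fcgr1 lay 142 bp to the left of the midpoint and that at the far right of Hist2 lay 267 bp to the right. The scores themselves were more modest. With the search limited to 100 bp either side of the midpoint, and the threshold at the score that 1% of windows of that size reach, a match was present in 5 of 13 (38.5%), beside 40.8% of the other peaks. At the score that 1% of the full-width windows reach, a match was present in 2 of 13 cluster peaks (15.4%, exact 95% binomial interval 1.92 to 45.4%), 5 of 26 outside (19.2%) and 20.5% of the other peaks. At the score that 5% of windows reach, it was present in 6 of 13 (46.2%, interval 19.2 to 74.9%), 12 of 26 (46.2%) and 52.6% of the other peaks. At the score that 0.1% of windows reach, it was present in 0 of 13, 1 of 26 and 5.73% of the other peaks. The intervals cover counting error only, and the shares of the cluster peaks cannot be told from those of other peaks at these numbers.

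Strand and strength did not follow the score in a simple order. Of the 6 cluster peaks with a match at the looser score, 5 had it on the minus strand, all of them in Hist1 A and Hist1 C, and the site at Hist2h2bb was on the plus strand. Outside the clusters 7 were on the plus strand and 5 on the minus strand, and among the other peaks 2250 and 2135. The minus-strand site between Hist1h2bp and Hist1h2bq has an identical plus-strand copy right of Hist1h2br, counted outside. Both lie in the inverted repeat described below, where short reads cannot be assigned to a copy, so these strands are uncertain. The highest score in a cluster peak, 22.54 bits, belonged to the peak of 6.75 between Hist1h4c and Hist1h1c, one of the weaker peaks. The site of the strongest cluster peak, between Hist1h1t and Hist1h4c, had 21.53 bits, and the site upstream of Hist1h4j had 22.45. The peak of 29.40 in Fcgr1 had a best match of 17.46 bits, that at Hist2h4 15.49, that at Hist1h4a 7.22 and that at Hist1h3e 7.11. The first of these is just below the looser threshold of 17.7 bits, and 43.6% of the flanking windows reach or pass the last.

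**Figure D4:**
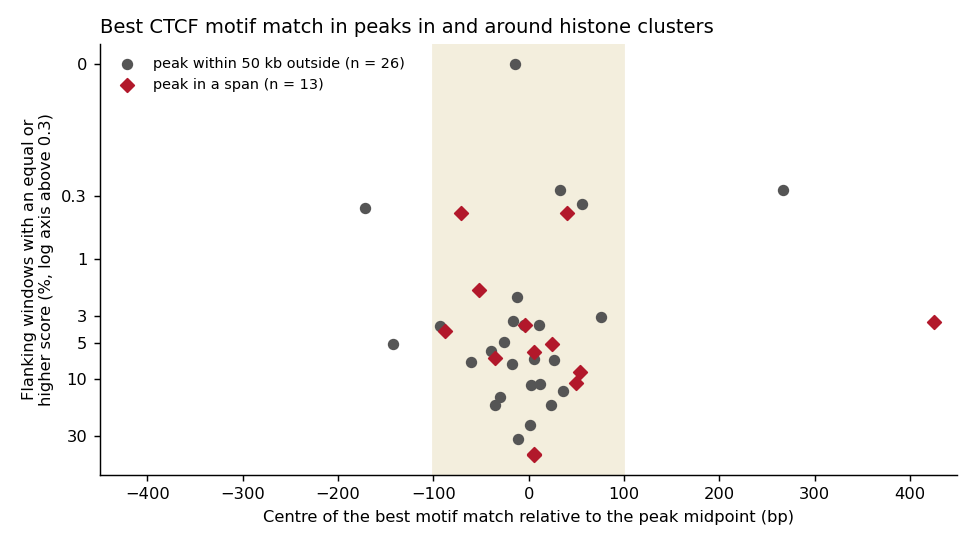
Best match to the CTCF motif in each peak inside (n = 13) and within 50 kb outside (n = 26) histone clusters, by its distance in bp from the peak midpoint and by the share of flanking windows that score as high or higher (percent, with higher scores at the top). The shaded band is 100 bp either side of the midpoint and holds 12 of the 13 diamonds; the exception at 425 bp is the peak at Hist2h2bb.

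Identical 20-base matches recurred at some sites outside the clusters. The match printed for Hist1h2al and for the far right of Hist2 is also the best match of the peak at Hist3 that lies 10838 bp from Hist3h2a. The same 20 bases are the best match of 169 peaks on the 4 chromosomes. The pooled values of the 3 peaks were 7.03 at Hist1h2al, 13.71 at Hist2 and 10.27 at Hist3. No cluster peak carried exactly these bases as its best match. The printed matches between Hist1h1e and Hist1h2ac and of the first peak between Hist1h4c and Hist1h1c differ from them at only a few bases.

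The site between Hist1h2bp and Hist1h2bq and the site to the right of Hist1h2br are the same 30 bases on opposite strands, because they belong to an inverted repeat. Going outward from the site, 10523 bases in a row are equal between chr13:21893127-21903649 and the reverse complement of chr13:21924031-21934553. The left copy holds the pair Hist1h2bq and Hist1h2ao, the right copy Hist1h2br and Hist1h2ap, and the H4 genes Hist1h4m and Hist1h4n cross the inner ends. The peak at the left copy had 14.49 (19.27 in replicate 1 and 13.14 in replicate 2) and that at the right copy 16.60 (16.37 and 19.42). Relative to the list medians these were 1.17 ± 0.329 and 1.29 ± 0.138 (SD, n = 2), a difference smaller than the spread between replicates, and replicate 1 was higher on the left and replicate 2 on the right. Every 32-letter word of both peaks occurs more than once in the genome, so reads of that length from the 2 copies cannot be told apart.

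Repeated sequence was common in the histone clusters. A word of 32 letters was counted as unique when it occurred once on the autosomes and X on either strand. Unique words made up 77.9% of the spans, 88.9% of the 50 kb on either side and 68.7% of the histone genes themselves. Within 1 kb of histone gene starts the share was 69.8%, beside 89.4% around a sample of 443 other protein-coding starts. It was 60.9% over Hist1 A, 83.7% over Hist2 and 84.9% over Hist1 C. By type the median around starts was 66.8% for H2A, 67.5% for H2B, 75.2% for H3, 86.9% for H4 and 95.1% for H1. Of the 67 members, 9 had less than 50% unique words around the start, and none of these 9 had a peak there, beside 7.46% of all 67. So small a set allows no comparison. The share over members with a start peak had a median of 81.1% and over those without, 74.1%. The part of repeats in where peaks were called was not tested.

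A separate processing of the same libraries on the mm10 genome gave similar positions inside the clusters, except at the inverted repeat. Here 66 of the 67 genes were matched to RefSeq by synonym, and the conservative set of reproducible peaks was used, in which a peak must rank alike in both replicates. It placed 11 summits in the spans, or 2.59 per 100 kb, with 8 in Hist1 C, 2 in Hist1 A and 1 in Hist2, and 27 within 50 kb outside. The median signal was 86.8 in the spans, 80.9 outside and 77.2 over all 43344 peaks. The highest cluster value, 172.3, was again between Hist1h1t and Hist1h4c, at 2.12 ± 0.221 of each replicate's median over the conservative peaks (SD, n = 2). The summit that corresponds by its order to the Fcgr1 peak ranked lower than on mm9. It had 136.1, or 1.68 ± 0.0527 of those medians (SD, n = 2), and exceeded 79.8% of the conservative peaks. The summits left of Hist1h2bl and left of Hist1h4h were higher, at 172.6 and 165.3. The 2 weak peaks that the mm9 replicate lists lacked, beside Hist1h4j and between Hist1h4b and Hist1h4a, were present with signals of 37.5 and 34.8. The peaks left of Hist1 D and left of Hist1h2al, which overlapped the mm9 list of replicate 2 alone, also had counterparts, with signals of 48.1 and 20.0. In replicates 1 and 2 these had 20.7 and 25.5 at Hist1 D and 9.94 and 12.1 at Hist1h2al. Near the inverted repeat, no entry of the conservative set, the optimal set or either replicate's list lay within 10 kb beyond Hist1h2bq or Hist1h2br. RefSeq gives Hist2h2bb a shorter model, so 2 summits beside it, of 42.4 and 113.0, counted as outside the cluster there. Some positions outside the clusters differed as well. Beside Hist1h2al, the conservative set had an added summit on the left, of 32.4, and none for the mm9 peak of 7.03 on the right. Left of Hist4h4 it had a weak summit of 18.9, where the pooled mm9 list had no peak.

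On mm10, 60 members had a RefSeq start. A conservative summit lay within 1000 bp of 3 of them (Hist1h4j, Hist1h4c and Hist1h3e), beside 9.96% of all protein-coding genes with a RefSeq start. Hist2h4 had no start in the table used, and the summit near Hist1h4a was farther away than 1000 bp. The replicate lists on mm10 also hold background entries. Entries in both lists lay within 1000 bp of 8 members (13.3%), beside 19.8% of all genes, and 4 of these 8 were H4 genes, 3 H2A and 1 H3.

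Genes that act on histone transcripts, and histone variants made outside S phase, were looked at for the same measure. Of 21 symbols listed for factors of histone gene transcription and mRNA processing, 20 were found as such in the annotation. A pooled peak lay within 1000 bp of a start for 2 of the 20, beside the 10.3% over all genes. These were Eri1, an exonuclease that trims the 3′ end of histone mRNA, with 4.64 and an overlap in replicate 1 alone (5.02), and Srrt, which works with the cap-binding complex, with 4.90 (4.84 in replicate 1 and 6.02 in replicate 2). The other 18 had their nearest peak 1142 to 39966 bp away, with a median of 13323 bp and 3 within 5 kb: Zfp473 at 1142 bp, Sympk at 2014 bp and Lsm10 at 3111 bp, named after their values were seen. Over all protein-coding genes the median was 11474.5 bp and 30.7% had a peak within 5 kb. Those values include genes with a start peak, which the 18 leave out, so they are not directly comparable. The first of the 18 by name, Casp8ap2, Ccne1 and Ccne2, had theirs at 28654, 20735 and 24662 bp. Of 16 symbols listed for replication-independent variants, 13 were found as such in the annotation and 2 had such a peak. H3f3b, a gene for the variant H3.3, had 16.46 (16.90 and 18.57) at 662 bp, and H1fx, a linker variant, had 8.16 (7.66 and 10.57) at 727 bp. The other 11 had theirs 1149 to 39748 bp away, with a median of 10095 bp and 4 within 5 kb: H2afy2 at 1149 bp, H2afz at 1155 bp, H3f3a at 2016 bp and Hils1 at 2793 bp, also named after their values were seen. The same limit applies to a comparison of these 11 with all genes. The first of the 11 by name, Cenpa, the centromeric H3, H1foo and H2afb1, had theirs at 16343, 17684 and 30548 bp.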

How the data were processed

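Chromatin immunoprecipitation with sequencing against CTCF was done in 2 libraries, replicates 1 and 2. The authors deposited peak lists on mm9 (replicate 1, replicate 2 and pooled) and on mm10, per the file headers and accompanying notes. The mm9 and mm10 lists give a signal value per peak, whose scale is not stated in the deposited files, and a −log10 p, which in the deposited mm9 lists is at least 5. For the aligner, the peak caller and the handling of reads that map to several places, no source used here gives a name or setting. Read depth is unknown.

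Peaks were placed by midpoint on mm9 with GENCODE vM1 genes on the autosomes and X, and by summit on mm10 with RefSeq (GRCm38) positions; no coordinates were converted. Lists were taken to share a peak at an overlap of at least 1 bp. The motif was learned by expectation maximization (30 iterations), a script tested on simulated data. Python 3.11.15, numpy 2.4.6, pandas 2.3.3 and scipy 1.17.1 were used. Where nothing says that the replicates came from separate cultures, their spread may be technical. Named genes were the members with a start peak, those beside each cluster peak, the strongest peak on each side of a cluster, the nearest and farthest member of each cluster, and members of 2 lists. The members and lists were chosen with earlier results of these data known.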

Additional observations from a re-analysis of the deposited data

How the results depend on the processing

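The number of peaks inside the clusters was 13 with the pooled list, 11 with either replicate left out, 11 with a −log10 p of at least 10 or a value of at least 5, 12 when members were joined within 50 kb and 21 when they were joined within 250 kb, which takes in 799.3 kb in place of 432.3. The density was 3.01 per 100 kb, 2.54 with either replicate left out and with both stricter limits, 3.21 with joining within 50 kb and 2.63 within 250 kb. Members with a peak within 1000 bp of their start numbered 5, with 3 to 4 when a replicate was left out. They numbered 1 within 500 bp, 10 within 2000 bp and 9 when any overlap of the peak counted (13.6% of all genes). The ratio of the cluster median value to the list median was 1.02, with 0.939 to 1.06 when a replicate was left out, 1.11 with joining within 50 kb and 1.20 within 250 kb. The share of cluster peaks in both lists was 84.6%, and 100% of each replicate's cluster peaks were in the pooled list. The share with a motif was 15.4%, and became 0% with the threshold set at 0.1% of the windows beside peaks (5.73% of other peaks), 38.5% within 100 bp of the midpoint (40.8%) and 46.2% with a threshold of 5% that was chosen after seeing the data (52.6%). On mm10 the count was 11, and 11 to 12 under the alternatives. The causes of these changes were not tested. No paired analysis was possible because both libraries belong to one group.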

Other observations

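Hist3h2a begins at the position where the longer gene Trim17 begins in the mm9 annotation, and 2 pooled peaks lie inside Trim17 beyond the end of Hist3h2a, at 10.27 (12.67 in replicate 1 and 8.85 in replicate 2) and 11.11 (11.62 and 12.00). The other protein-coding genes among the histone genes, Trim17, Gm17658 and Hfe, had no pooled peak within 1000 bp of a start. Of 28 such genes within 50 kb outside the clusters, 1 had one, Butr1, beside 10.3% of all protein-coding genes. These numbers are too small to compare. The cluster peaks had a median GC content of 41.8%, beside 46.1% for the peaks within 50 kb outside and 45.1% for other peaks of the 4 chromosomes. The 2 cluster peaks that overlapped no peak of either mm9 replicate list had −log10 p of 6.47 beside Hist1h4j and 5.93 between Hist1h4b and Hist1h4a.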
